A study of Mus musculus with 14 samples.

Results

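The transcripts described here are those of 10 genes of the AP-1 and immediate early response, *Fos*, *Fosb*, *Fosl2*, *Jun*, *Junb*, *Jund*, *Egr1*, *Dusp1*, *Ier2*, and *Btg2*, taken by symbol from a bulk RNA-seq count table of 24062 genes. All 10 were found, and all 10 passed the filter on low counts in every comparison. The genes were chosen by their measured levels in PNs against controls in these libraries, so their differences from controls are given as descriptions, and counts of calls among them are not evidence. The levels come from 14 mouse libraries of whole tissue on a mixed C57BL/6, I-129, and FVBN background, with no drug given. Control DRGs with their nerves (n = 3) carried floxed *Nf1* alleles without Cre (*Nf1*fl/fl), and plexiform neurofibromas (PNs, n = 11) came from *DhhCre*;*Nf1*fl/fl mice, in which Cre from the *Dhh* promoter removes *Nf1* in the Schwann cell (SC) lineage and leaves it in other cells. Growth was read from MRI scans taken 2 months apart, at 7 and 9 months. In 5 PNs, called slow growing, the volume differed by less than 5 mm3 between scans, and in 6, called fast growing, it increased by more than 35 mm3. The methods give 9 months as the age of the mice, and a figure legend gives 7 months.

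AP-1 is a pair of proteins, made of a Jun family member alone or with a Fos family member, that binds DNA and switches on genes in growth, stress, and wound responses. *Fos*, *Fosb*, *Junb*, *Egr1*, and *Ier2* are immediate early genes, which are transcribed within minutes of a stimulus through transcription factors that are already present, largely under the RAS-MAPK pathway that neurofibromin, the *Nf1* product, restrains. *Jun* is the SC injury factor that drives the repair program of damaged nerves, and *Egr1* is a zinc finger transcription factor of immature and injured SCs. *Dusp1* encodes a phosphatase that switches MAP kinases off, and *Btg2* encodes an antiproliferative protein of the BTG/TOB family. Because such genes respond to handling, their levels in tissue also depend on the time between dissection and freezing, which is not given in the sources used here.

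The libraries held 9596773 to 17594164 counted reads. Levels are given as CPM, counts scaled to a common library size with TMM factors. *Nf1* was between 131 and 229 CPM in controls and between 224 and 293 CPM in PNs, and as the floxed exons are not counted apart, this level is no check of the genotype. Markers of neurons summed to at least 1711 CPM and markers of SCs to at least 4557 CPM in every control, and none of the marker lists used had a gene at 0 in every library of a group. The fast PN 1191 stood apart, with 10 neuron markers summing to 34.8 CPM against 2537 to 8305 CPM in the other fast PNs. Skeletal muscle and fat markers were high in the control tissue. The sum of 15 muscle markers was 4033 to 16282 CPM in controls, 33.0 to 3743 CPM in slow PNs, and 88.2 to 2454 CPM in fast PNs, and the sum of 13 fat markers was 4441 to 6261, 49.6 to 3536, and 50.3 to 323 CPM. In whole tissue, fewer cells of a type and less RNA per cell cannot be told apart.

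The upstream sequences of *Fosb*, *Dusp1*, *Fos*, and *Btg2*, which are 4 of the 5 members furthest below the controls, and of *Jun* are shown because a cAMP response element (CRE), the letters TGACGTCA, or its core TGACG, occurs in several of them. They run 5′ to 3′ on the gene's strand, from position -200 to -21 before the RefSeq start, or to -48 for *Dusp1*, where an annotated exon begins, on GRCm38.p6. The capitals mark the CRE in *Dusp1* and *Btg2*, the core in *Fos*, *Fosb*, and *Dusp1*, and the variant TGACATCA in *Jun*. The windows are chr12:85473690-85473869 on the plus strand for *Fos*, chr7:19310066-19310245 on the minus strand for *Fosb*, chr4:95052243-95052422 on the minus strand for *Jun*, chr17:26508520-26508672 on the minus strand for *Dusp1*, and chr1:134079176-134079355 on the minus strand for *Btg2*.
Fos: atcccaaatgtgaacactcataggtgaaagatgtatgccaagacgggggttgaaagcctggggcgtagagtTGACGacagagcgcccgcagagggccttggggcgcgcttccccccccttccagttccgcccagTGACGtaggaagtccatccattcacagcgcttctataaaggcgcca
Fosb: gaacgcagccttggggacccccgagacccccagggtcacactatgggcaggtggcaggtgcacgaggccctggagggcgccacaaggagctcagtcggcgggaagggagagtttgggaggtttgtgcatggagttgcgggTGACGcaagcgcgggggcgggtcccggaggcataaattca
Jun: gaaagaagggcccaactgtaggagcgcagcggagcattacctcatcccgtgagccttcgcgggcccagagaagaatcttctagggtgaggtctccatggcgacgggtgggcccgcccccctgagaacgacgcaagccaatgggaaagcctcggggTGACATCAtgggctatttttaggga
Dusp1: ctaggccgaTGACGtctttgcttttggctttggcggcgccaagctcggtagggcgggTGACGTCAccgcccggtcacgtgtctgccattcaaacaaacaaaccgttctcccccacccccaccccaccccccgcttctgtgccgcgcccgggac
Btg2: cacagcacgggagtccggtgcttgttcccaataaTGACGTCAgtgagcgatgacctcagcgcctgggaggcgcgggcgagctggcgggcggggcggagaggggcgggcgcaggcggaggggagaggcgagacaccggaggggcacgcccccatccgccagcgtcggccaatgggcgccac

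RefSeq promoter sequences were matched for 8 of the 10 genes, with *Egr1* and *Ier2* unmatched, and 250 bases upstream of each start were searched on both strands. The CRE was found in *Dusp1* from -143 to -136 and in *Btg2* from -166 to -159, and 1.55% of 32851 promoters hold it. Its core TGACG, which every full CRE contains, was found in *Fos*, *Fosb*, *Junb*, *Dusp1*, and *Btg2* and in 17.8% of all promoters. The variant TGACATCA lay from -45 to -38 in *Jun*, and 2.93% of promoters hold it. The AP-1 site TGACTCA (4.46% of promoters), the EGR site GCGTGGGCG (0.536%), and the CArG box that binds serum response factor (1.47%) were in none of the 8 windows. Sites further upstream than 250 bases were not searched. The RefSeq start used for *Jund* lay upstream of its GENCODE start at chr8:70698949, with positions -200 to -21 at chr8:70697539-70697718. The lack of matches in *Jund* therefore says nothing of the sequence next to its GENCODE start. These are matches of letters only, and no binding was measured. In GENCODE, exons of another gene on the opposite strand overlap *Jun* by 232 bases, *Junb* by 173, *Jund* by 877, and *Dusp1* by 11, and whether the reads were counted by strand is not given in the sources used here, so these counts may include some reads of the partner gene.

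*Fosb*, a Fos family subunit, lay furthest below the controls. Its level was 8.04, 9.98, and 21.8 CPM in controls DRG3, DRG4, and DRG5, and 1.22, 1.05, 0.711, 0.365, and 0.482 CPM in slow PNs 1079, 1198A, 1202, 1203, and 1206, the order kept below. In fast PNs it ranged from 0.666 to 2.01 CPM with a median of 1.21. Every PN was below every control, and between 4 and 30 reads lay behind each PN value. The log2 fold change was -4.11 (SE 0.48) for slow PNs and -3.40 (SE 0.43) for fast PNs against the same controls.

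*Fos*, the founding immediate early gene of the family, was at 15.1, 33.8, and 57.5 CPM in controls and at 6.38, 13.9, 4.16, 2.74, and 5.11 CPM in slow PNs. In fast PNs it ranged from 10.003 to 18.6 CPM (median 14.5). All slow PNs were below the lowest control, DRG3, whereas fast PNs overlapped it. The log2 fold change against controls was -2.49 (SE 0.56) in slow and -1.34 (SE 0.37) in fast PNs.

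*Fosl2*, which encodes the slower and longer lasting subunit Fra-2, followed another pattern. It was at 124, 58.2, and 99.1 CPM in controls, at 42.4, 100.3, 45.8, 22.3, and 68.7 CPM in slow PNs, and between 85.7 and 167 CPM (median 141) in fast PNs. Both PN groups overlapped the controls, with 4 of 6 fast PNs above and 2 of 5 slow PNs inside the range of the controls. Its log2 fold change against controls was -0.78 (SE 0.45) in slow PNs and 0.45 (SE 0.30) in fast PNs.

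*Jun* was the most abundant AP-1 transcript per length. It was at 119, 70.6, and 90.1 CPM in controls, at 40.2, 54.4, 46.2, 55.1, and 53.4 CPM in slow PNs, and between 53.4 and 94.2 CPM (median 72.4) in fast PNs. No slow PN reached the lowest control, DRG4, and the fast PNs overlapped both other groups. The log2 fold changes against controls were -0.94 (SE 0.19) in slow and -0.39 (SE 0.19) in fast PNs.

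*Junb*, a subunit that can oppose Jun on growth genes, was at 3.89, 7.30, and 7.40 CPM in controls, at 1.37, 2.55, 2.44, 1.10, and 1.25 CPM in slow PNs, and between 1.85 and 4.76 CPM (median 3.04) in fast PNs. Slow PNs were all below the controls, and 1 fast PN, 1053, was above control DRG3. *Jund*, the constitutively expressed Jun subunit, did not share this pattern. It was at 16.1, 6.66, and 10.6 CPM in controls, at 9.80, 14.5, 11.8, 11.9, and 13.5 CPM in slow PNs, and between 11.02 and 23.4 CPM (median 16.6) in fast PNs, and all 3 groups overlapped. Against controls the log2 fold change of *Junb* was -1.87 (SE 0.40) in slow and -1.06 (SE 0.35) in fast PNs, and that of *Jund* was 0.11 (SE 0.28) and 0.54 (SE 0.33).

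**Figure D1:**
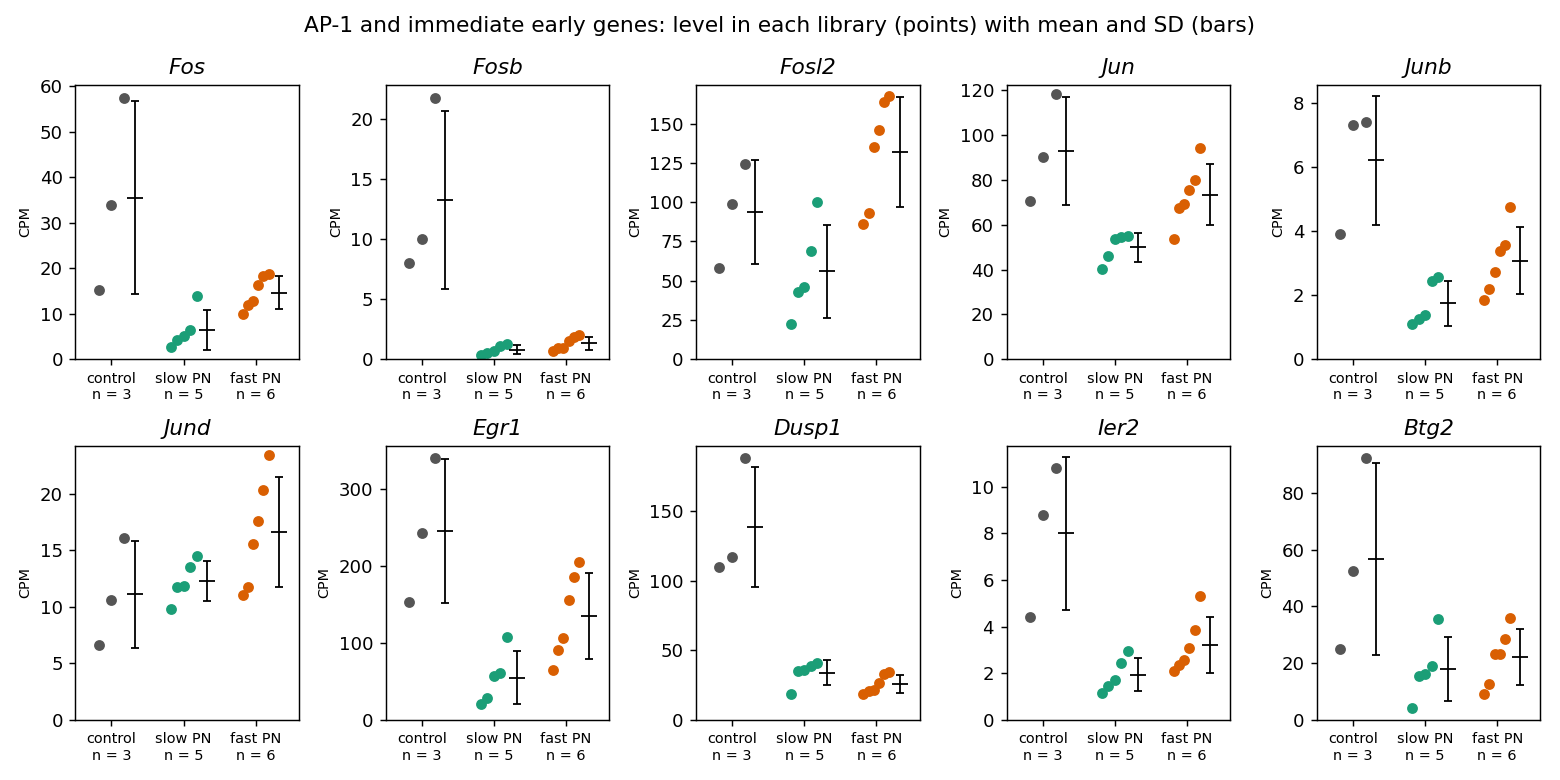
Level of each of the 10 genes in CPM (linear axis from 0, scaled per gene) in 3 control, 5 slow PN, and 6 fast PN libraries; points are libraries sorted by level, and the dash and bars are the mean and SD. *Fosb* and *Dusp1* lay below every control in all 11 PNs, and *Fosl2* and *Jund* overlapped the controls in both PN groups.

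Among the other immediate early genes, *Egr1* had the highest CPM of the 10 genes in controls, at 153, 243, and 341 CPM. It was at 56.9, 108, 28.0, 20.3, and 61.0 CPM in slow PNs and between 64.4 and 205 CPM (median 132) in fast PNs. Every slow PN was below every control, and fast PNs 1053, 1191, and 1216 were inside the range of the controls. The log2 fold change against controls was -2.20 (SE 0.52) in slow PNs and -0.92 (SE 0.39) in fast PNs.

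*Ier2*, a small nuclear immediate early protein, had a similar order of groups at low levels. It was at 4.41, 8.78, and 10.8 CPM in controls, at 2.43, 2.93, 1.73, 1.46, and 1.16 CPM in slow PNs, and between 2.07 and 5.31 CPM (median 2.83) in fast PNs. Slow PNs did not overlap the controls, and 1 fast PN, 1053, did. The log2 fold changes were -2.07 (SE 0.40) and -1.37 (SE 0.37).

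*Dusp1*, the phosphatase, was at 110, 117, and 189 CPM in controls, at 40.7, 35.3, 35.7, 18.3, and 39.0 CPM in slow PNs, and between 18.6 and 34.6 CPM (median 23.7) in fast PNs. Each PN was below each control, and *Dusp1* was the only member with a lower mean in fast than in slow PNs (25.6 ± 6.71 CPM, SD, n = 6, against 33.8 ± 8.94 CPM, n = 5). Its log2 fold change against controls was -2.07 (SE 0.29) in slow and -2.49 (SE 0.26) in fast PNs.

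*Btg2* was at 24.9, 52.5, and 92.2 CPM in controls, at 35.4, 15.5, 19.0, 4.02, and 16.3 CPM in slow PNs, and between 8.91 and 35.7 CPM (median 23.2) in fast PNs. Slow PN 1079 and fast PNs 1191 and 1216 were above the lowest control, so both groups overlapped it. Its log2 fold change was -1.68 (SE 0.61) in slow and -1.42 (SE 0.48) in fast PNs.

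Counted over the 10 genes as a description, 7 had every slow PN below every control, where 12.4% of all tested genes did, and 2 (*Fosb* and *Dusp1*) had every fast PN below every control, where 15.2% of all tested genes did. At an adjusted p under 0.05 in edgeR, 7 were lower in slow PNs than in controls against 7.13% of all genes, 6 were lower in fast PNs against 16.7%, and 6 were lower in all PNs pooled against 13.4%. The rule of choice fixes these counts, and they support nothing further. The medians of the members' log2 fold changes were -1.97 in slow, -1.20 in fast, and -1.40 in all PNs, beside 0.04, 0.02, and 0.10 over all tested genes, and the comparisons share their controls. The counts depended on 2 controls. Without DRG4 they were 3, 2, and 3 in slow, fast, and all PNs, and without DRG5 they were 2 in each. Calls over all genes fell as well, from 1769, 5043, and 4283 in slow, fast, and all PNs to 685, 3603, and 2476 without DRG4 and to 599, 3342, and 2061 without DRG5. Without slow PN 1079, and without slow PN 1202, 4 members were lower in slow PNs, where the calls over all genes were 957 and 1052. With a correction for transcript length and GC, chosen after seeing the data, 4, 2, and 4 members were lower in slow, fast, and all PNs. Calls over all genes were then 1166, 4550, and 3576.

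Muscle and fat markers were also lower in PNs. In all PNs against controls, 9 of 15 muscle and 4 of 13 fat markers fell and none rose (edgeR, adjusted p under 0.05). In slow PNs 1 of 15 and 1 of 13 fell, with medians of -2.89 and -1.51 and every marker below 0, and in fast PNs 13 of 15 and 13 of 13 fell, with medians of -4.45 and -5.46. Over all genes, 1121 (7.13%) fell in slow, 2672 (16.7%) in fast, and 2180 (13.4%) in all PNs. The counts of muscle and fat markers called in slow PNs are near that share. Control DRG5 had the highest sums of both lists and the highest *Fos*, *Fosb*, *Junb*, *Egr1*, *Dusp1*, *Ier2*, and *Btg2* of all libraries, while control DRG3, with the lowest muscle sum of the controls, was the lowest control for those 7 genes and the highest for *Fosl2*, *Jun*, and *Jund*. The lowest fat sum of the controls was that of DRG4. Other lists differed between the same libraries. DRG5 was also the highest control for endothelial and neutrophil markers and the lowest for neuron, SC, satellite glia, and heat shock genes, and DRG3 was the lowest control for endothelial and macrophage markers and the highest for neuron, SC, fibroblast, and heat shock genes. With the scores of both lists as covariates, 1 member, *Fosb*, remained called in all PNs, where the calls over all genes went from 4283 to 426, and 0 members passed in slow or in fast PNs, where 0 of all genes passed as well. Every control was above every PN for both sums (muscle, at least 4033 against at most 3743 CPM, fat, at least 4441 against at most 3536 CPM). The covariates and the group can therefore not be told apart in these fits, and their fold changes are not levels adjusted for muscle and fat. In the fit with covariates for all PNs, the median log2 fold change of the members was -1.91 against -1.40 without covariates, with -3.30 for *Fos*, -3.49 for *Egr1*, -2.05 for *Junb*, and -1.68 for *Dusp1*. In slow and fast PNs the medians with covariates were -1.24 and -1.04. All 10 members were below 0 in that fit for all PNs and for fast PNs, so *Fosl2* and *Jund*, which were not called in any of these fits, changed sign, *Fosl2* from 0.05 to -1.78 in all PNs and from 0.45 to -0.78 in fast PNs, and *Jund* from 0.40 to -0.35 and from 0.54 to -0.14. In slow PNs *Jund* went from 0.11 to -0.16. Neutrophil markers moved too, with 7 of 8 lower in PNs and a summed level of 50.8 to 1697 CPM in controls, 19.5 to 150 CPM in slow PNs, and 19.5 to 245 CPM in fast PNs. The sum of 6 endothelial markers was 321 to 409 CPM in controls, 89.8 to 407 CPM in slow PNs, and 124 to 309 CPM in fast PNs, with every fast PN below every control, and 1 of the 6 fell in all PNs. Some markers of SCs and fibroblasts rose. Of 10 SC markers, 3 rose in all PNs and none fell, where 12.9% of all genes rose, and all 10 had a log2 fold change above 0 (median 0.75). Of 7 fibroblast markers, 6 rose in fast PNs and none fell (median 1.41), where 14.8% of all genes rose, while in all PNs none rose and *Pi16* fell. The part of neutrophil, endothelial, SC, and fibroblast markers in the result was not tested.

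The make-up of AP-1 transcripts was then described per length, as CPM per kb of a gene's merged exons, so that levels of different genes could be set side by side. With the length of the longest annotated transcript instead, chosen after the data had been seen, the share of *Fosl2* was larger (19.1, 22.8, and 32.2% in controls, slow, and fast PNs) and that of *Fosb* in controls was 4.65%, so shares depend on the length used. The 6 subunits summed to 65.4 ± 12.7 CPM per kb in controls (SD, n = 3), 32.4 ± 6.84 in slow PNs (n = 5), and 54.3 ± 8.52 in fast PNs (n = 6). The slow PNs ranged from 26.4 to 43.3 CPM per kb, narrowly below the fast PNs, which ranged from 44.2 to 67.4. By longest transcript, the highest slow PN was at 49.4 and the lowest fast PN at 49.7 CPM per kb. Among single genes, 3.01% of all tested genes did not overlap between slow and fast PNs, and the difference in the sum was not tested. *Jun* was the largest share in each group, at 44.7 ± 8.44% in controls, 49.2 ± 7.67% in slow PNs, and 42.8 ± 8.27% in fast PNs (39.7, 44.9, and 37.6% by longest transcript).

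*Fos* made up 23.2 ± 12.2% of the sum in controls, 8.07 ± 3.85% in slow PNs, and 11.4 ± 2.11% in fast PNs, whereas *Fosl2* made up 14.6 ± 3.57%, 17.1 ± 5.91%, and 24.9 ± 4.96%. The ratio of *Fosl2* to *Fos* per length was 1.995, 0.418, and 0.419 in controls DRG3, DRG4, and DRG5 and ranged from 1.61 to 3.37 in the 11 PNs. *Fos* was ahead of *Fosl2* in 2 of 3 controls, and *Fosl2* was ahead of *Fos* in control DRG3 and in every PN. *Jund* took 10.03 ± 3.42% in controls, 23.0 ± 1.92% in slow PNs, and 18.04 ± 2.88% in fast PNs. *Fosb* took 3.19 ± 1.37% in controls, 0.389 ± 0.214% in slow PNs, and 0.382 ± 0.144% in fast PNs.

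**Figure D2:**
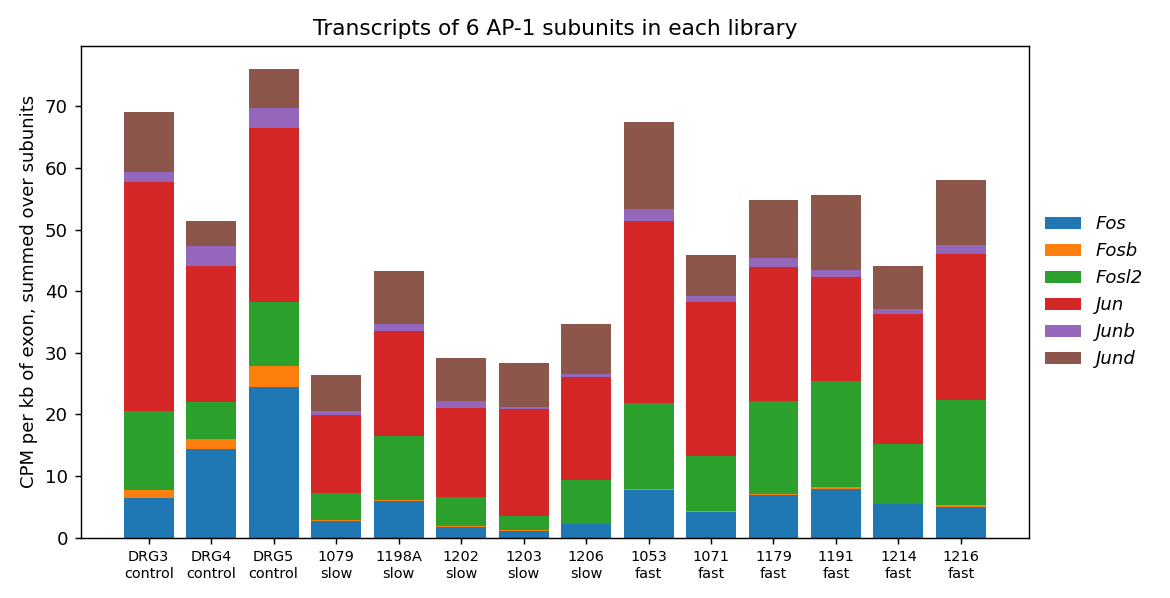
Transcripts of 6 AP-1 subunits in CPM per kb of exon (linear axis from 0), stacked for each library. The sums were 51.3 to 76.0 in controls, 26.4 to 43.3 in slow PNs, and 44.2 to 67.4 in fast PNs, with *Jun* the largest part in every bar but that of 1191, where it was *Fosl2* (by longest transcript, *Fosl2* was also the largest in 1179 and 1216), and *Fosb* barely visible in PNs.

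Fast-growing PNs were compared with slow-growing PNs to ask whether the genes follow tumor growth. The genes were chosen with earlier results of these libraries known and for comparison across the 3 groups, so these values are not independent of the choice and are read as a description. In edgeR's quasi-likelihood test, with p-values adjusted over 15465 genes by Benjamini-Hochberg, 0 of the 10 genes passed an adjusted p of 0.05, where 1.27% of all genes did. At an unadjusted p under 0.05, 6 genes (*Fos*, *Fosl2*, *Jun*, *Junb*, *Egr1*, and *Ier2*) had higher levels in fast PNs and none had lower levels, where 11.9% of all genes were higher and 8.51% lower. The log2 fold change was above 0 for 9 of the 10 genes and for 46.5% of all genes, with a median of 0.73 over the members and -0.03 over all genes.

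The values nearest the threshold were those of *Jun*, *Fosl2*, *Fos*, and *Egr1*. *Jun* was higher by 0.55 on the log2 scale (SE 0.15, adjusted p = 0.0722), from 49.9 ± 6.47 CPM (SD, n = 5) to 73.3 ± 13.6 CPM (n = 6), by edgeR. *Fosl2* had a log2 fold change of 1.24 (SE 0.34, adjusted p = 0.0788 in edgeR), from 55.9 ± 29.8 to 132 ± 35.04 CPM. Both groups overlapped for each of the 10 genes, where 3.01% of all genes did not overlap. *Fos* had a log2 fold change of 1.17 (SE 0.37, edgeR adjusted p = 0.108) and *Egr1* one of 1.30 (SE 0.44, edgeR adjusted p = 0.126).

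For the remaining members, the log2 fold changes were 0.82 (SE 0.33) for *Junb*, 0.74 (SE 0.41) for *Fosb*, 0.72 (SE 0.33) for *Ier2*, 0.43 (SE 0.21) for *Jund*, 0.28 (SE 0.47) for *Btg2*, and -0.40 (SE 0.23) for *Dusp1*, with edgeR adjusted p between 0.190 and 0.746. The result depended on the test and on slow PN 1198A, the slow PN with the highest *Fos*, *Fosl2*, *Junb*, *Jund*, *Egr1*, and *Ier2*. DESeq2's Wald test called 4 genes higher in fast PNs, with adjusted p of 0.0134 for *Fosl2*, 0.0149 for *Jun*, 0.0327 for *Fos*, and 0.0433 for *Egr1*, and it called 1592 genes over the whole table (866 higher) where edgeR called 196. Without 1198A, edgeR called *Fos* (adjusted p = 0.00870), *Fosl2* (adjusted p = 0.0177), and *Egr1* (adjusted p = 0.0364), and its calls over all genes were 1194 (889 higher).

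**Figure D3:**
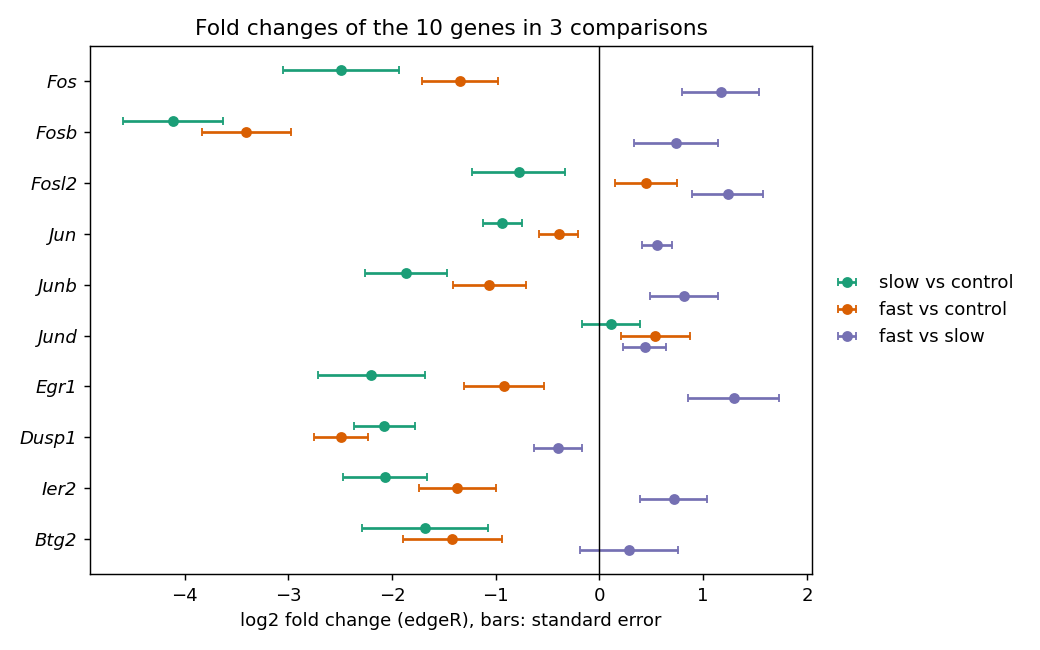
Log2 fold change (edgeR) of each gene for slow PNs versus controls, fast PNs versus controls, and fast versus slow PNs; bars are standard errors, and the first 2 comparisons share the 3 controls. Fast PNs versus slow PNs lay above 0 for 9 genes and below 0 for *Dusp1*.

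Across the 11 PNs, most pairs of the genes had a positive correlation. Of 45 pairs of members, 40 had a Pearson's r of log2(CPM + 1) above 0, with a median of 0.60, and with each growth group centred on its mean 39 were positive and the median was 0.53. Of all pairs among 15320 genes, 49.6% were positive, and 49.8% when centred. With groups centred, *Jun* did not share the pattern, with a negative r with 6 of the other 9 members, from -0.01 with *Egr1* to -0.51 with *Btg2*. Without centring, *Fos* and *Egr1* were the most alike pair (r = 0.94) and *Dusp1* and *Jun* the least alike (r = -0.58). With groups centred, the most alike pair was *Dusp1* and *Btg2* (r = 0.92, with 0.87 for *Fos* and *Egr1*), and the least alike was *Jun* and *Btg2*. Slow PN 1203 had the lowest level among PNs for 7 genes (*Fos*, *Fosb*, *Fosl2*, *Junb*, *Egr1*, *Dusp1*, and *Btg2*), and fast PN 1053 had the highest for 5 (*Jun*, *Junb*, *Jund*, *Egr1*, and *Ier2*). These correlations share libraries and depth, and they describe 11 PNs only.

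The mean of the members' z scores over the 11 PNs, called the member profile here, was 1.04 in 1053, 0.88 in 1191, and 0.78 in 1216, and it was lowest in 1203 at -1.44. Among 15310 genes with a mean of at least 1 CPM, the 10 with the pattern most like it over the 11 PNs were *Cd34*, *Gpr124*, *Adcy7*, *Hcls1*, *Bicc1*, *Rufy1*, *Laptm4b*, *Rab3il1*, *Mrc2*, and *Srpx*, with r between 0.967 and 0.984. The same 10 genes came out with a pseudocount of 0.5 in place of 1.

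Markers of fibroblasts and macrophages moved with the member profile. Over the 11 PNs its r with the log2 of the summed level was 0.93 for 7 fibroblast markers and 0.93 for 7 macrophage markers, and 0.87 for each with growth groups centred. For satellite glia it was 0.64 (0.30 centred), for endothelial markers 0.54 (0.65 centred), for neutrophil markers 0.13 (0.17 centred), and for fat markers -0.20 (0.37 centred). It was -0.58 for neuron (-0.50 centred), -0.44 for SC (-0.02 centred), and -0.44 for muscle markers (-0.41 centred), and -0.76 for heat shock genes (-0.67 centred), which respond to stress and handling. Among PNs, the heat shock and neuron sums were both highest in 1203 (6565 and 14316 CPM) and both lowest in 1191 (1381 and 34.8 CPM). Whether handling or cell content lies behind the heat shock value was not tested. The fibroblast sum was 1937 to 3747 CPM in controls, 1258 to 5572 CPM in slow PNs, and 5474 to 10350 CPM in fast PNs, and the macrophage sum was 184 to 596, 52.8 to 490, and 254 to 752 CPM. Slow PN 1203 was the lowest library for both sums, and 1198A was the highest slow PN for both. Over all genes in fast versus slow PNs, 1.27% passed in edgeR and 20.4% had an unadjusted p under 0.05. In that comparison, 0 of 7 fibroblast and 0 of 7 macrophage markers passed in edgeR, with 6 and 5 at an unadjusted p under 0.05 (median log2 fold changes 1.11 and 1.57), and their part in the members' levels was not tested. Of 12 fat markers, 1 fell (*Pnpla2*) and 11 had an unadjusted p under 0.05 (median -3.62), and of 10 SC markers 0 passed and 7 had an unadjusted p under 0.05 (median -0.63). Of those 7, 6 were below 0 and *Cdh19* was above 0 (0.75), and 4 of the 10 SC markers were above 0.

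**Figure D4:**
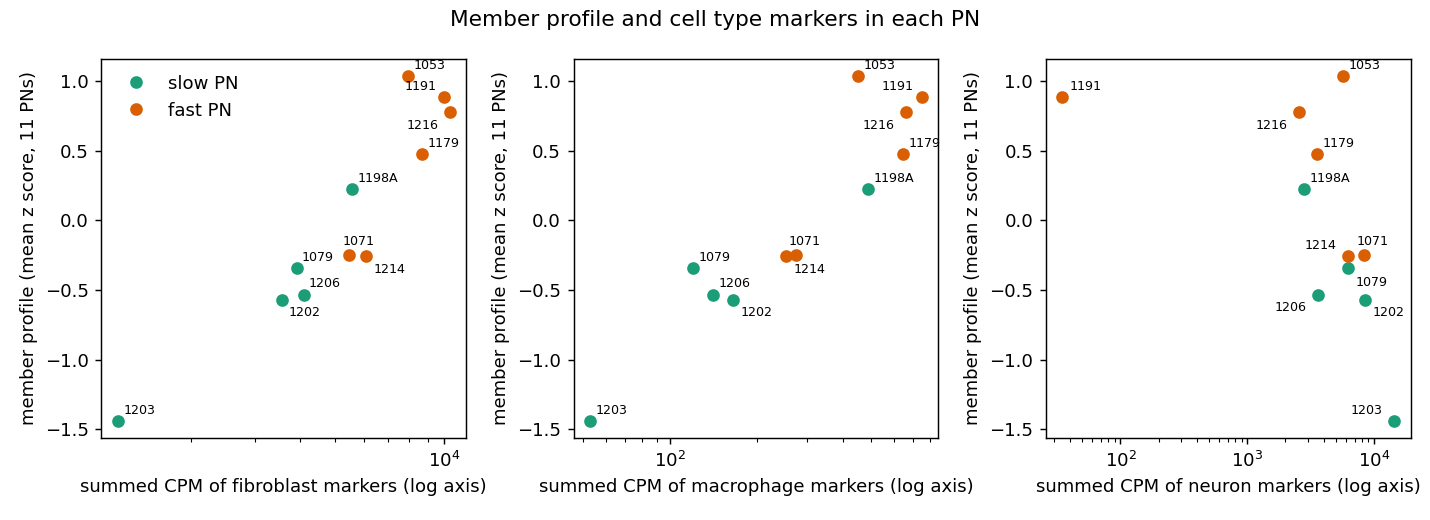
Member profile (mean z score of the 10 genes over 11 PNs) against the summed CPM of fibroblast, macrophage, and neuron markers (log axes); each point is a PN, labelled by its number. The profile ran from -1.44 in 1203 to 1.04 in 1053 and was higher where the fibroblast and macrophage sums were higher, and 1191 stands apart in the neuron panel at 34.8 CPM.

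Other genes of the same response were examined from lists of related genes. Of 37 tested immediate early genes outside the 10, 15 fell in PNs against controls and none rose, where 13.4% of all genes fell and 12.9% rose (edgeR, adjusted p under 0.05). The nuclear receptor *Nr4a3* fell by 3.46 on the log2 scale (SE 0.55, adjusted p = 0.000483), from 7.35 ± 4.16 CPM (SD, n = 3) to 0.663 ± 0.548 CPM (n = 11). The stress gene *Gadd45g* fell by 2.68 (SE 0.25, adjusted p = 5.12e-06), from 19.8 ± 8.56 to 3.08 ± 0.849 CPM, and *Klf2*, a zinc finger factor of quiescent endothelium, fell by 2.56 (SE 0.38, adjusted p = 0.000301).

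The kinases *Pim1* and *Sik1* fell by 2.08 (SE 0.32) and 1.91 (SE 0.32) on the log2 scale, with adjusted p of 0.000328 and 0.000655 in edgeR. The other 10 that fell were *Cyr61*, *Ctgf*, *Klf4*, *Csrnp1*, *Gem*, *Arc*, *Maff*, *Nr4a1*, *Gadd45b*, and *Errfi1*. The median log2 fold change of the 37 genes was -0.72, beside 0.10 for all genes. Among 7 tested AP-1 partners and relatives, *Atf3*, a stress-induced repressor, fell by 0.87 (SE 0.30, adjusted p = 0.0473) and *Atf2*, a partner of Jun, rose by 0.44 (SE 0.15, adjusted p = 0.0446). Of these 44 genes, 17 passed, but 9 did without control DRG5 and 2 did with muscle and fat scores as covariates, where the calls over all genes went from 4283 to 2061 and to 426.

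The MAP kinase phosphatases related to *Dusp1* were mixed. Of 8 tested, 3 fell and none rose, where 13.4% of all genes fell, and 4 of the 8 had a log2 fold change above 0 (median -0.28). *Dusp10*, which acts on the JNK and p38 kinases, fell by 2.65 (SE 0.25, adjusted p = 7.82e-06), from 33.6 ± 12.2 to 5.34 ± 1.56 CPM, and *Dusp2* and *Dusp4* fell by 3.33 (SE 0.66) and 1.52 (SE 0.38, adjusted p = 0.00218 and 0.00983, edgeR). *Dusp6*, an ERK phosphatase, had a log2 fold change of 0.81 that did not pass (SE 0.57, edgeR adjusted p = 0.318). Of the BTG/TOB relatives of *Btg2*, all 3 tested fell, *Tob2* by 1.25, *Tob1* by 1.14, and *Btg1* by 0.87 (edgeR adjusted p = 0.00138, 0.0158, and 0.0259).

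For the lists that follow, the same shares of all genes apply, 13.4% that fell and 12.9% that rose. Of 24 genes of the kinase path to AP-1, 3 fell, which is near that share, and 1 rose, which is below it. *Map2k7*, the kinase above JNK, rose by 0.50 (SE 0.13, adjusted p = 0.0100), while *Map2k2*, *Srf*, the factor that binds the CArG box, and *Map2k5* fell by 1.10, 0.72, and 0.37 (edgeR adjusted p = 0.000317, 0.00415, and 0.0282). Among 12 tested genes known as AP-1 targets, the matrix proteases *Mmp13* and *Mmp3* and the receptor *Plaur* fell by 4.92, 2.85, and 1.13, and the cell cycle gene *Ccnd1* rose by 2.599 (edgeR adjusted p = 0.000414, 0.0200, 0.0179, and 0.0401). Of 4 tested genes of the SC program under Jun, *Shh* rose by 2.22 (SE 0.41, adjusted p = 0.00137 in edgeR), from 5.68 ± 1.73 to 26.5 ± 9.66 CPM. *Jun* itself was not called in all PNs (log2 fold change -0.57). The study saw no *Shh* in the SC clusters of its single-cell PN data, and advised caution because the gene is sparse. Whole tissue does not show which cells held *Shh* here. Of 7 heat shock genes, *Hspa1a* and *Dnajb1* fell by 2.97 and 1.46 (edgeR adjusted p = 0.00352 and 0.00287). Nothing in the labels says whether the 3 controls came from separate mice, so these p-values measure the spread between samples.

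**Figure D5:**
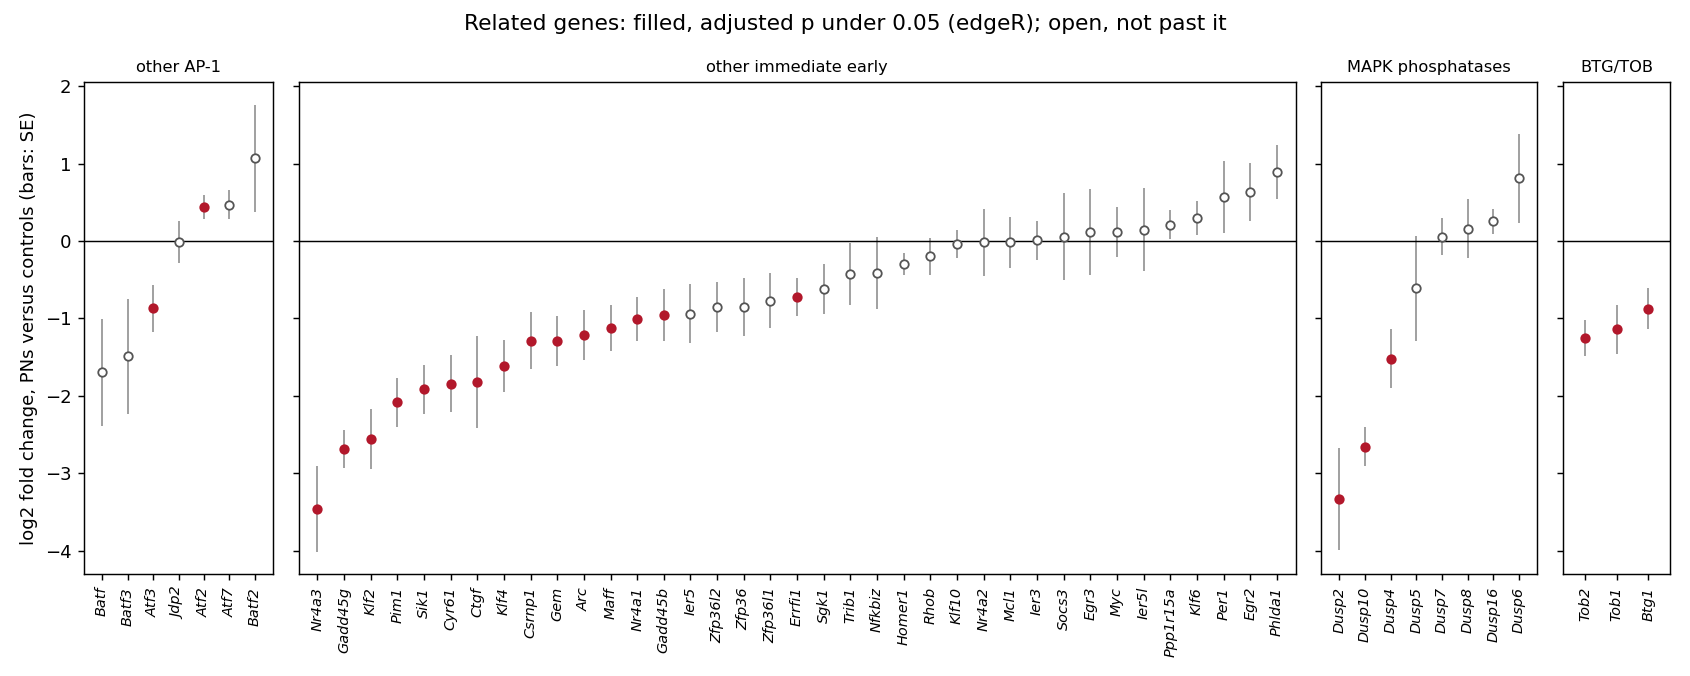
Log2 fold change (edgeR) of related genes in 11 PNs versus 3 controls, by list; bars are standard errors, filled points passed an adjusted p of 0.05, and open points did not. Filled points of the immediate early, phosphatase, and BTG/TOB lists all lie below 0.

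Between fast and slow PNs, few related genes passed. Over all genes 1.27% passed and 0.802% rose. Of 36 tested immediate early genes, *Egr3*, a relative of *Egr1*, rose by 1.68 in fast PNs (SE 0.34, adjusted p = 0.0449 in edgeR), from 10.4 ± 3.63 CPM (SD, n = 5) to 33.5 ± 13.8 CPM (n = 6), and of 6 tested AP-1 relatives *Batf2* rose by 1.75 (SE 0.37, edgeR adjusted p = 0.0484), from 1.10 ± 0.586 to 3.76 ± 0.945 CPM. Of 10 tested AP-1 targets, *Timp1*, an inhibitor of matrix proteases, rose by 2.63 (SE 0.56, edgeR adjusted p = 0.0485), and of 4 tested genes of the SC program under Jun, the growth factor *Gdnf* rose by 2.82 (SE 0.45, edgeR adjusted p = 0.0317), from 0.626 ± 0.287 to 4.50 ± 2.33 CPM. None of 24 kinase path, 7 phosphatase, or 3 BTG/TOB genes passed, with 4, 1, and 2 at an unadjusted p under 0.05, where 20.4% of all genes were. These 4 genes had adjusted p between 0.0317 and 0.0485 in edgeR. The calls over all genes went from 196 to between 2 and 8 without slow PN 1079, 1202, or 1206 or fast PN 1053, 1179, 1191, or 1216. Without any 1 of slow PNs 1079, 1202, and 1206 or fast PNs 1053, 1179, 1191, 1214, and 1216, 0 of the 42 genes of both lists passed, whereas 6 passed without 1198A (5 higher, 1 lower) and 4 without 1203 (2 higher, 2 lower).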

How the data were processed

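Bulk RNA-seq of 14 mouse libraries was used, grouped by the labels into 3 controls, 5 slow PNs, and 6 fast PNs. Per the methods and processing notes, total RNA was amplified (Ovation RNA-Seq System v2), TopHat2 2.0.9 placed the reads on mm10, and featureCounts 1.5.2 counted them. The authors deposited raw read counts per gene, which were used here. Their deposited log2 TMM table was not used. Strand setting and annotation are not given in the sources used here.

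In R 4.3.3, genes were filtered with filterByExpr, scaled by TMM, and compared with the quasi-likelihood test of edgeR 4.0.16, with only the compared groups in the fit and Benjamini-Hochberg adjustment over all tested genes. A gene was called at an adjusted p under 0.05. Limma 3.58.1 and DESeq2 1.42.0 gave alternatives, and every library was omitted once. The fits were tested on simulated data. Depth was 9596773 to 17594164 counts per library. Lengths and positions came from GENCODE, and upstream sequences from RefSeq GRCm38.p6. Figures used matplotlib 3.10.9.

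The members and gene lists were chosen with earlier results of these data known. Named genes were all members, up to 5 called genes per direction of each list with the largest fold change, and the 10 genes most like the member profile. *Nf1*, and *Dusp6* and *Cdh19*, which did not pass, were also named. The other genes that fell were named after their values had been seen.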

Additional observations from a re-analysis of the deposited data

Results flagged for a closer look

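In slow PN 1203, *Dusp1* was at 18.3 CPM, while the other 4 slow PNs lay between 35.3 and 40.7 CPM. The gap to the nearest of them was 0.758 of the whole range of the 5 libraries, above Dixon's 95% critical value. Of 20 groups of values checked (10 genes in slow and fast PNs), this 1 was past its critical value, and chance alone passes about 1 in 20. The library was also the lowest PN for 6 other members and had the lowest fibroblast and macrophage marker sums.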

How the results depend on the processing

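No paired analysis was possible because the labels number mice and DRGs and give no number shared between groups. Every control was above every PN for the muscle and fat sums, so covariates and group cannot be told apart in fits against controls with these scores. With muscle and fat scores as covariates, the members that passed against controls were 1 for all PNs, 0 for slow PNs, and 0 for fast PNs, while the members' median log2 fold change for all PNs was -1.91 against -1.40 and the calls over all genes were 426 against 4283. In that fit the other AP-1 and immediate early genes that passed were 2 for all PNs and 0 between fast and slow PNs. A correction for transcript length and GC was an alternative chosen after seeing the data. With it, 4 members passed for all PNs, 4 for slow PNs, and 2 for fast PNs against controls. Calls over all genes were then 3576, 1166, and 4550, against 4283, 1769, and 5043. Between fast and slow PNs, 0 other genes passed with this correction, where 125 of all genes passed. DESeq2 called 4 members and 4 other genes between fast and slow PNs, where RLE size factors gave 0 other genes and no expression filter gave 1. When single libraries were left out, the members that passed ranged from 2 to 8 for all PNs, 2 to 7 for slow PNs, and 2 to 6 for fast PNs against controls, and from 0 to 3 between fast and slow PNs. The other genes ranged from 9 to 18 for all PNs and from 0 to 6 between fast and slow PNs. Leaving a library out also makes its group smaller, and the causes of these changes were not tested. No member called against controls in the reported fits changed sign under an alternative, but *Btg2* in slow PNs, not called there (-1.68) and called by DESeq2 (-1.70), was at 0.74 with muscle and fat covariates, and *Fosl2* in all and fast PNs and *Jund*, not called, turned from above to below 0 with those covariates. *Fosl2* in all PNs was also below 0 with limma-trend (-0.11), with all 3 groups in 1 fit (-0.13), without DRG4 (-0.20), and without fast PN 1053, 1179, 1191, or 1216. *Jund* in slow PNs was at -0.15 without DRG4. Over all genes, the number called between fast and slow PNs was 196, and it ranged from 2 to 1194 with 1 library left out and from 0 to 1592 under the other alternatives. Depth limits *Fosb* most, with 4 to 30 reads per PN. The AP-1 shares by longest transcript moved by over 1 SD in 5 of 18 cases, those of *Fosb* and *Fosl2* in controls and fast PNs and of *Jund* in slow PNs (20.9 against 23.0%).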
